A study of Mesocricetus auratus with 6 samples.

Results

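The chaperonin CCT, also called TRiC, was described through 7 of its subunit genes (Tcp1, Cct2, Cct3, Cct4, Cct5, Cct7 and Cct8) in BHK21 cells, an established fibroblast-like line from the kidney of baby hamsters. The 7 genes were named as subunits of this complex by a rule that used no measured value, although results of these data were known when the complex was picked. All 7 were found by NCBI Gene ID among the 16078 IDs measured. All 7 passed the filter on low values, as 11464 genes did. The cells had been transfected with STYK1/NOK, a membrane protein with a kinase-like domain whose gene the series calls an oncogene (3 libraries, STYK1 1 to 3), or with the empty mammalian expression plasmid pCMV-Myc (3 libraries, vector 1 to 3). RNA of all 6 libraries was harvested 48 after transfection, with no unit of time given, and all 6 carry the labels kidney, cell line BHK21 and age one day. Whether the 3 libraries of a group are separate cultures is not labelled. The p-values therefore reflect the spread of these libraries alone, and that spread may be technical.

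CCT is a barrel made of a pair of stacked rings, and each ring holds 8 different but related subunits. It closes over newly made proteins and uses ATP to help them fold. Actin and tubulin are its best known clients, and many proteins with WD40 propellers also pass through it. Since each subunit has its own fixed place in the ring, the assembled complex holds the subunits in equal numbers. In yeast, the counterparts of Tcp1, Cct2, Cct4 and Cct5 lie on the side of the ring that binds ATP tightly, and those of Cct3, Cct6a, Cct7 and Cct8 on the side that binds it weakly. Cct6a encodes the zeta subunit, which completes the ring. It was not among the 7 named genes and is given beside them for comparison.

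Values were deposited as FPKM, that is, fragments scaled by transcript length and by the fragments mapped in the library, so levels of different genes can be set side by side as far as the gene lengths used are right. No read totals are given. Judged by the steps between low FPKM values, the libraries' depths relative to STYK1 1 lay between 0.979 and 1.03. Vector 1 stood apart: its Pearson correlation with the other 5 libraries, over log2(FPKM + 1) of all tested genes, was 0.963 to 0.976, against 0.988 to 0.993 between the others, and its FPKM sum was 619840, against 528160 to 557946 in the others. The hamster gene Styk1 measured 2.04, 2.46 and 2.41 FPKM in STYK1 1, 2 and 3, against 1.5, 1.80 and 1.89 FPKM in vector 1, 2 and 3, and it did not pass the test (limma-trend, adjusted p = 0.470), so the values of this gene do not show overexpression from the plasmid, whose species of insert is not labelled. Of the fibroblast markers, Vim lay between 3650 and 4141 FPKM in all 6 libraries, and Pdgfra, Pdgfrb and Fn1 measured 35.2 FPKM or more, while Col1a1, Col1a2, Thy1 and Lum reached at most 1.02 FPKM and Dcn lay between 3.51 and 6.79 FPKM. The 4 epithelial markers with values reached at most 0.23 FPKM. Of the 3 endothelial markers with values, Cdh5 measured 4.45 to 9.11 FPKM, and Pecam1 and Tek reached at most 0.54 FPKM. Of the 5 blood cell markers, Cd68 and Cd14 were abundant, Csf1r lay between 2.91 and 3.70 FPKM, and Ptprc and Itgam reached at most 0.16 FPKM. The 5 summed to 452 to 513 FPKM in STYK1 libraries and 521 to 534 FPKM in vector libraries.

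The 7 CCT genes were abundant and, with the values as deposited, their level was much the same with STYK1/NOK as with the vector. Their FPKM summed to 1582, 1607 and 1649 in STYK1 1, 2 and 3, against 1638, 1616 and 1634 in vector 1, 2 and 3. The highest of these 6 sums was 1.04-fold the lowest, and the groups overlapped. The mean sum was 1612 ± 33.9 FPKM in STYK1 libraries and 1629 ± 11.6 FPKM in vector libraries (SD, n = 3 each), a ratio of 0.990. With libraries scaled to equal FPKM sums this ratio was 1.07, where the median log2 difference of all tested genes was 0.12. After quantile normalization the median log2 difference of the 7 was 0.08, and 6 of 7 lay above the median of all tested genes. Over all libraries, the 7 ranked between 232 and 603 among the 16078 IDs by FPKM. In bulk RNA, fewer cells expressing a gene and less RNA per cell cannot be told apart. The plot of subunit levels shows each gene in each library.

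**Figure D1:**
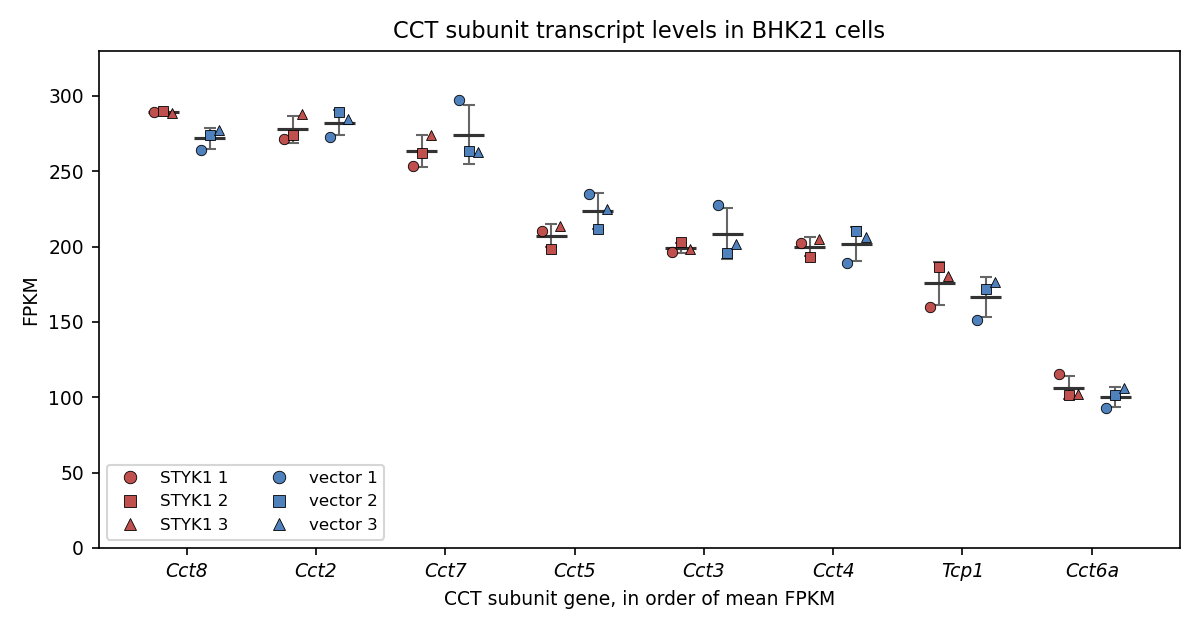
FPKM (y axis, from 0) of the 7 CCT members and of Cct6a (x axis, in order of mean FPKM) in each library, STYK1 libraries in red left of vector libraries in blue, with the group mean as a bar and the SD over 3 libraries as whiskers. Cct8, Cct2 and Cct7 lie between 253 and 297 FPKM, Cct5, Cct3 and Cct4 between 189 and 235, Tcp1 between 151 and 187 and Cct6a between 92.8 and 115.

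On the side of the ring that binds ATP tightly, Cct2 (Gene ID 101843624), the beta subunit, had the highest level. It measured 271, 274 and 288 FPKM in STYK1 1, 2 and 3, against 273, 289 and 285 FPKM in vector 1, 2 and 3. The groups overlapped, and no library was far from the rest. The means were 278 ± 9.18 FPKM in STYK1 and 282 ± 8.42 FPKM in vector libraries (SD, n = 3 each), and the log2 difference, STYK1 minus vector, was -0.02 ± 0.08 (SE; limma-trend, adjusted p = 0.900). With a coefficient of variation of 2.94% over the 6 libraries, Cct2 had the steadiest FPKM of the 7.

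Cct5 (Gene ID 101839519), the epsilon subunit, measured 210.1, 198 and 213 FPKM in the STYK1 libraries, against 235, 211 and 225 FPKM in the vector libraries, in the order 1 to 3. STYK1 2 was lowest and vector 1 highest, and only STYK1 3 lay above the lowest vector library. The mean of 207 ± 7.84 FPKM in STYK1 against 224 ± 11.9 FPKM in vector libraries (SD, n = 3 each) was a ratio of 0.927. Its log2 difference of -0.11 ± 0.08 (SE) was the largest in size among the 7, and it did not pass the test (limma-trend, adjusted p = 0.532). When libraries were scaled to equal FPKM sums the difference was 0.0027, with the median of all tested genes moved from 0.01 to 0.12.

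Cct4 (Gene ID 101830326), the delta subunit, measured 202, 193 and 205 FPKM in STYK1 1, 2 and 3, against 189, 210.4 and 206 FPKM in vector 1, 2 and 3. The vector libraries held both the lowest and the highest value, with all STYK1 libraries between them. The log2 difference was -0.01 ± 0.08 (SE; limma-trend, adjusted p = 0.948), the smallest in size of the 7.

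Tcp1 (Gene ID 101838376), the alpha subunit and the gene from which the family takes its name, had the lowest level of the 7. It measured 159.6, 187 and 181 FPKM in STYK1 1, 2 and 3, against 151, 172 and 176 FPKM in vector 1, 2 and 3. In each group the library numbered 1 was the lowest, and the groups overlapped. The means of 176 ± 14.2 FPKM in STYK1 and 167 ± 13.4 FPKM in vector libraries (SD, n = 3 each) gave a ratio of 1.05, with a log2 difference of 0.08 ± 0.10 (SE; limma-trend, adjusted p = 0.703). Of the 7 genes, Tcp1 varied most between libraries, with a coefficient of variation of 7.78%. Without vector 1 its log2 difference was 0.0090.

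On the side that binds ATP weakly, Cct8 (Gene ID 101838858), the theta subunit, was the single member whose groups did not overlap. It measured 289.1, 289.8 and 288 FPKM in STYK1 1, 2 and 3, against 264, 274 and 277 FPKM in vector 1, 2 and 3. All 3 STYK1 libraries lay above all 3 vector libraries, and they were within 1.45 FPKM of each other. Such a separation with STYK1 higher was found in 13.6% of all tested genes (and 9.44% had STYK1 lower without overlap), so 1 of 7 members is near the background. The means were 289 ± 0.725 FPKM in STYK1 and 272 ± 6.80 FPKM in vector libraries (SD, n = 3 each), a ratio of 1.06. The log2 difference of 0.09 ± 0.07 (SE) had a 95% interval of -0.08 to 0.26 and did not pass the test (limma-trend, adjusted p = 0.569). It was 0.07 without vector 1. With equal FPKM sums it was 0.20 (limma-trend, unadjusted p = 0.0396, adjusted p = 0.367), where the median of all tested genes was 0.12. After quantile normalization it was 0.21 (limma-trend, unadjusted p = 0.0230, adjusted p = 0.502), where the median of all tested genes was -0.0019.

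Cct7 (Gene ID 101838316), the eta subunit, measured 253, 262 and 274 FPKM in STYK1 1, 2 and 3, against 297, 263 and 263 FPKM in vector 1, 2 and 3. Vector 1 was the highest, and the other 2 vector libraries lay within the range of the STYK1 libraries. The log2 difference was -0.06 ± 0.09 (SE; limma-trend, adjusted p = 0.749) with all libraries and 0.0013 without vector 1. Cct3 (Gene ID 101844752), the gamma subunit, was also highest in vector 1, with 196, 203 and 199 FPKM in STYK1 1, 2 and 3, against 228, 196 and 202 FPKM in vector 1, 2 and 3. Vector 2 was the lowest of the 6, and outside vector 1 the 5 values spanned only 196 to 203 FPKM. Its log2 difference of -0.06 ± 0.08 (SE; limma-trend, adjusted p = 0.727) was 0.0033 without vector 1.

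Cct6a (Gene ID 101831920), the zeta subunit set beside the 7, measured 115, 101 and 102 FPKM in STYK1 1, 2 and 3, against 92.8, 101 and 106 FPKM in vector 1, 2 and 3. STYK1 1 was highest and vector 1 lowest, and the groups overlapped, with a log2 difference of 0.09 ± 0.09 (SE; limma-trend, adjusted p = 0.646). In every library it lay below each of the 7, and Tcp1, the lowest of these, was 1.39- to 1.84-fold higher. Cct6b, which in mouse is the testis form of the zeta subunit, lay between 0.26 and 1.22 FPKM and was below the filter of the test.

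Of the 7 members, 0 passed at an adjusted p under 0.05 (limma-trend), as did 0% of the 11464 tested genes, and 0 of 7 were under an unadjusted p of 0.05, against 9.84% of tested genes (4.95% higher and 4.88% lower in STYK1). With equal FPKM sums and after quantile normalization, 1 of 7, Cct8, was under it. With the values as deposited, the smallest unadjusted p among the 7 was 0.210, that of Cct5. The median log2 difference was -0.02 over the 7 and 0.01 over all tested genes, with 2 of 7 members above 0 against 52.7% of tested genes. Equal FPKM sums put 7 of 7 above 0, but moved the median of all tested genes to 0.12, and 2 of 7 lay above that median, as many as lay above the median of all tested genes without this scaling. Quantile normalization put 6 of 7 above 0 with the median of all tested genes at -0.0019, so there the count changed relative to other genes as well. In size, and with the values as deposited, the median difference was 0.06 over the 7 and 0.15 over all tested genes. There 6 of 7 members lay within 0.1 of 0, as 35.5% of tested genes did. The tested genes start at a group mean of 1 FPKM, and genes as abundant as the 7 were not set apart here. After quantile normalization Tcp1 lay at 0.15 and Cct8 at 0.21. With the values as deposited, the 95% intervals of the 7 lay between -0.29 and 0.30, that is, between 0.817-fold and 1.23-fold. Changes larger than these bounds fall outside the interval of each member there, while differences inside its interval cannot be told from 0 with these libraries. With equal FPKM sums the log2 difference was 0.19 ± 0.11 for Tcp1 and 0.20 ± 0.08 for Cct8 (SE), so these bounds do not carry over to other scalings. As a share of all FPKM in a library, the 7 took 0.299%, 0.303% and 0.304% in STYK1 1, 2 and 3, against 0.264%, 0.291% and 0.293% in vector 1, 2 and 3. On this scale the groups did not overlap, the ratio of group means was 1.07, and vector 1, with its larger FPKM sum, held the lowest share. The share of all tested genes that do not overlap on this scale was not computed. With equal FPKM sums the median log2 difference was 0.09 over the 7 and 0.12 over all tested genes, so the ratio does not set the 7 above other genes.

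**Figure D2:**
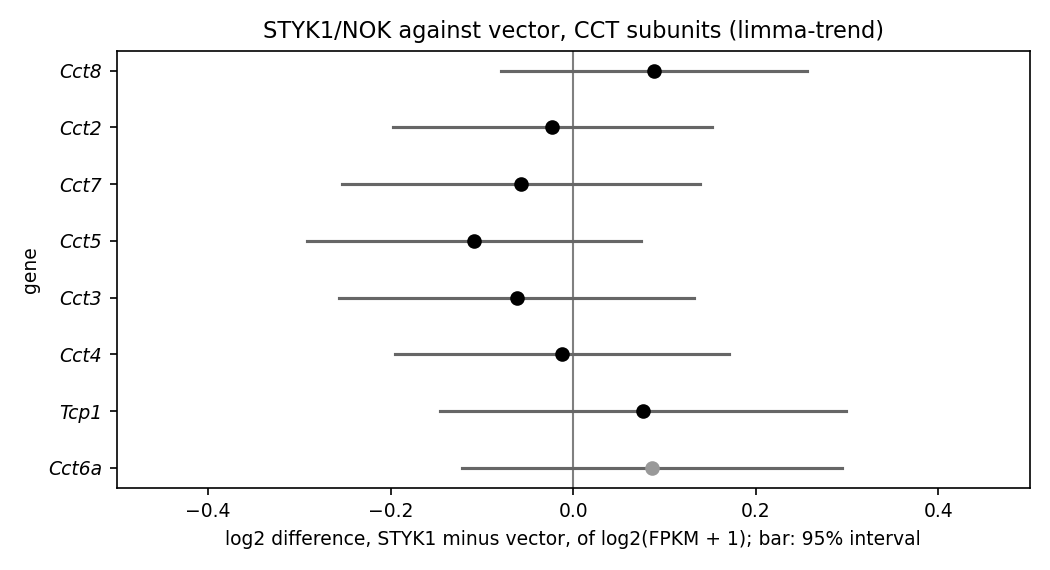
Log2 difference, STYK1 minus vector, of log2(FPKM + 1) (x axis) for the 7 CCT members in black and Cct6a in grey (y axis), with 95% intervals from limma-trend over 3 libraries in each group. Each interval includes 0, and the points lie between -0.11 for Cct5 and 0.09 for Cct8.

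The FPKM values of the 7 subunits were not equal, and their order fell into 3 steps. By mean FPKM over the 6 libraries the order was Cct8 (280.5 ± 10.4), Cct2 (280.04 ± 8.24), Cct7 (269 ± 15.4), Cct5 (216 ± 12.7), Cct3 (204 ± 12.1), Cct4 (201 ± 8.28) and Tcp1 (171 ± 13.3), each with its SD over 6 libraries. Cct8 and Cct2 differed by 0.437 FPKM, less than the SD of either, and Cct8 was above Cct2 in 3 of 6 libraries. Cct2 and Cct7 also differed by less than the SD of Cct7, as did Cct5 and Cct3 by less than the SD of either and Cct3 and Cct4 by less than the SD of either. The step below Cct7 was larger than this spread: Cct7 was 1.25-fold above Cct5 and above it in 6 of 6 libraries, with no overlap of their ranges. The step between Cct4 and Tcp1 was also kept in 6 of 6 libraries, at 1.17-fold, again with no overlap of ranges. Below Tcp1, Cct6a followed at a 1.66-fold lower mean. No source used here states how gene lengths were set or how reads shared with near-identical copies were counted, and their part in these steps was not tested.

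Within a library the highest of the 7 stood 1.81-, 1.55- and 1.60-fold above the lowest in STYK1 1, 2 and 3, against 1.96-, 1.68- and 1.62-fold in vector 1, 2 and 3. Tcp1 was the lowest in all 6 libraries. Cct8 was the highest in all 3 STYK1 libraries, while Cct7 was highest in vector 1 and Cct2 in vector 2 and 3. With Cct6a included, the ratio of highest to lowest was 2.51 to 2.86 in STYK1 libraries and 2.68 to 3.20 in vector libraries. As a description, the 7 alpha subunits of the 20S proteasome, Psma1 to Psma7, which also form a ring of different subunits, spanned 3.07- to 3.29-fold in STYK1 libraries and 3.26- to 4.37-fold in vector libraries, from Psma5 to Psma7.

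As shares of the 7-subunit sum, where equal amounts would give 14.3% each, Cct8 took 17.9% ± 0.403 in STYK1 and 16.7% ± 0.476 in vector libraries (SD, n = 3 each). Its share was 18.3%, 18.03% and 17.5% in STYK1 1, 2 and 3, against 16.1%, 16.9% and 16.98% in vector 1, 2 and 3, so that the groups did not overlap. The share of Cct5 was 12.9% ± 0.471 in STYK1 and 13.7% ± 0.642 in vector libraries, and that of Tcp1 was 10.9% ± 0.761 in STYK1 and 10.2% ± 0.860 in vector libraries (SD, n = 3 each). Both overlapped between groups. For the other 4 members the group means differed by 0.510 percentage points or less, with overlap. Shares of a common sum are tied to each other and to the FPKM they are taken from, so these are no separate results. The FPKM of Cct8 itself did not overlap between groups, and no background over all tested genes was computed for its share.

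Vector 1 stood apart in the proportions of the 7, while their sum there lay within the range of the other 5 libraries. Set against the mean of the other 5 libraries, its FPKM was 1.14-fold for Cct3, 1.13-fold for Cct7 and 1.11-fold for Cct5, and each of these was at its highest there. Tcp1 stood at 0.864-fold, Cct4 at 0.929-fold and Cct8 at 0.932-fold, each at its lowest of the 6 libraries, and Cct2 at 0.969-fold. The geometric mean of the 7 was 229 FPKM in vector 1 and between 222 and 232 FPKM in the other 5. Each member's log2 ratio to that geometric mean was then compared between libraries. The root mean square difference over the 7 members was 0.141 to 0.181 between vector 1 and the others, and 0.0378 to 0.0941 between pairs of the others. Vector 2 and vector 3 were the closest pair, at 0.0378, and STYK1 3 followed at 0.0390 from vector 2. These proportions moved with the library that stands apart over all genes, and what set it apart was not tested.

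**Figure D3:**
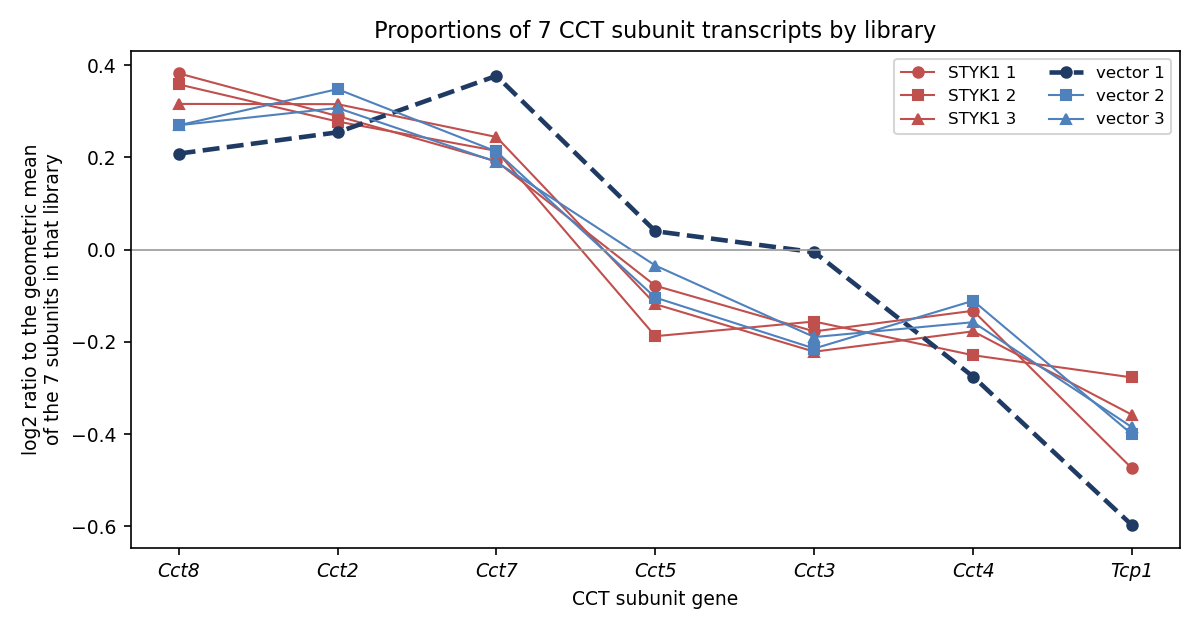
Log2 ratio of each of the 7 CCT members (x axis) to the geometric mean of the 7 in the same library (y axis), 1 line per library, STYK1 in red and vector in blue, with vector 1 dashed. The 5 solid lines run close together, while vector 1 lies above them at Cct7, Cct5 and Cct3 and below them at Cct8, Cct2, Cct4 and Tcp1.

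With the values as deposited, the FPKM of the 7 varied little over the 6 libraries. The SD of log2(FPKM + 1) over the 6 libraries was 0.0423 to 0.114, with a median of 0.0801 over the 7. The same median was 0.173 over all 11464 tested genes and 0.143 over the 909 with a mean of at least 100 FPKM. Without vector 1 the medians were 0.0428 over the 7, 0.114 over all tested genes and 0.0834 over the abundant ones. These spreads were not computed on other scales. Of all FPKM in a library, the 7 took from 0.264% in vector 1 to 0.304% in STYK1 3. Among the 6593 named genes outside the 7 with a mean of at least 10 FPKM, the 6 whose profile over the 6 libraries was most like the mean profile of the 7 were Josd1, Fads1, Exoc7, Serbp1, Nup35 and Foxo4. Their root mean square difference from it was 0.0139 to 0.0222 log2 units, where the 7 members themselves stood at 0.0296 (Cct2) to 0.0996 (Tcp1) and the median of these 6593 genes was 0.139. The mean profile itself stayed between -0.04 and 0.03 log2 units, so this likeness is that of genes that hardly varied.

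Genes that work beside CCT were set around it in 8 lists chosen by function. Prefoldin, which hands actin and tubulin chains to CCT, had a median log2 difference of -0.14, with 1 of 5 tested subunits above 0 and 4 below, and 0 at an unadjusted p under 0.05. Pfdn6 measured 160.4, 167 and 155 FPKM in STYK1 1, 2 and 3, against 258, 162 and 147 FPKM in vector 1, 2 and 3. Vector 1 was far above the rest, and without it the median of the list was -0.0082, with 3 of 5 below 0. Vbp1, another prefoldin subunit, had no overlap between groups, with 70.8, 73.4 and 71.3 FPKM in STYK1 libraries against 59.2, 67.2 and 70.6 FPKM in vector libraries (limma-trend, adjusted p = 0.512). It was the 1 of 5 tested subunits that was higher without overlap, where 13.6% of tested genes were. Its log2 difference was 0.13, and 0.06 without vector 1. Pfdn2 was listed at 0.05 FPKM in STYK1 1 and at 0 in the other 5 libraries.

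Of the 3 phosducin-like genes with values, whose products bind CCT and modulate folding, 1 lay above 0 and 2 below. Pdcl, the co-chaperone of G protein beta subunits, averaged 21.7 ± 1.04 FPKM in STYK1 and 18.7 ± 3.12 FPKM in vector libraries (SD, n = 3 each), with vector 1 lowest at 15.1 FPKM. Its log2 difference of 0.22 ± 0.13 (SE) did not pass (limma-trend, adjusted p = 0.487). Among the other genes with the chaperonin fold, Hspd1, the mitochondrial chaperonin, measured 167, 157 and 162 FPKM in STYK1 libraries against 144, 157 and 158 FPKM in vector libraries, with overlap. The CCT-like genes of ciliary protein assembly, Mkks, Bbs10 and Bbs12, measured between 2.50 and 12.4 FPKM and overlapped between groups.

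The R2TP and prefoldin-like genes, which take part in assembling large protein complexes, had 2 of 8 members at an unadjusted p under 0.05, against 4.88% of tested genes in that direction. These were Pih1d1, at 55.9 ± 4.31 FPKM in STYK1 against 73.3 ± 13.4 FPKM in vector libraries, and the ATPase gene Ruvbl2, at 44.5 ± 1.55 FPKM in STYK1 against 55.1 ± 9.18 FPKM in vector libraries (SD, n = 3 each). In both, all STYK1 libraries were below all vector libraries, with vector 1 the highest, and neither passed (limma-trend, adjusted p = 0.469 for each). Without vector 1 their log2 differences were -0.23 and -0.16, against -0.37 and -0.29 with it. Dnaaf10 had the next smallest p and was higher in STYK1 libraries, at 14.9 ± 0.459 FPKM against 12.9 ± 0.475 FPKM, without overlap (limma-trend, adjusted p = 0.469). Its log2 difference was 0.19, and 0.18 without vector 1. Among the 8 members, 1 was higher and 2 lower without overlap, where 13.6% and 9.44% of tested genes were. The list median was -0.11, with 3 of 8 above 0. Without vector 1 that median was -0.01, with 4 of 8 above 0.

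Tubulin folding cofactors take tubulin onward from CCT and build the alpha-beta dimer. All 6 of them, Tbca to Tbce and Arl2, had log2 differences below 0, with a median of -0.15, where 52.7% of tested genes lay above 0, and 2 were lower at an unadjusted p under 0.05, where 4.88% of tested genes were. Tbcb measured 89.3, 86.5 and 89.9 FPKM in STYK1 1, 2 and 3, against 121, 102 and 103 FPKM in vector 1, 2 and 3. No STYK1 library reached the lowest vector library, and the log2 difference was -0.29 ± 0.09 (SE; limma-trend, adjusted p = 0.469). Arl2, a small GTPase of the same pathway, averaged 43.4 ± 2.62 FPKM in STYK1 and 57.1 ± 11.7 FPKM in vector libraries (SD, n = 3 each; limma-trend, adjusted p = 0.469), again without overlap. So 2 of the 6 cofactors were lower and 0 higher without overlap, where 9.44% and 13.6% of tested genes were. Without vector 1 the median of the list was -0.07 with 4 of 6 below 0, the log2 difference of Tbcb was -0.21 and that of Arl2 -0.21.

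Among clients, actin and tubulin genes had a median log2 difference of 0.0091, with 7 of 12 tested genes above 0. Actb, cytoplasmic beta actin, averaged 2204 ± 126 FPKM in STYK1 and 2188 ± 28.2 FPKM in vector libraries, and Actg1 averaged 1169 ± 45.6 FPKM in STYK1 and 1163 ± 72.0 FPKM in vector libraries (SD, n = 3 each). The groups of both genes overlapped. Actr2, an actin-related subunit of the ARP2/3 complex, measured 90.6, 78.2 and 82.2 FPKM in STYK1 1, 2 and 3, against 32.2, 65.5 and 58.3 FPKM in vector 1, 2 and 3. All STYK1 libraries were higher, and vector 1 was far the lowest. The log2 difference of 0.74 ± 0.23 (SE; limma-trend, unadjusted p = 0.0129, adjusted p = 0.469) was 0.43 without vector 1. Tubb, a beta tubulin, measured 214, 221 and 219.7 FPKM in STYK1 libraries against 276, 228 and 227 FPKM in vector libraries, with no overlap (limma-trend, adjusted p = 0.493). Its log2 difference was -0.15, and -0.06 without vector 1. Among the 12 tested genes, 1 was higher and 1 lower without overlap, where 13.6% and 9.44% of all tested genes were.

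The WD40 and other clients had a median log2 difference of -0.03, with 7 of 16 above 0 and 0 at an unadjusted p under 0.05. Cdc20, the activator of the anaphase-promoting complex that depends on CCT to fold, averaged 54.5 ± 8.97 FPKM in STYK1 and 54.1 ± 7.17 FPKM in vector libraries (SD, n = 3 each). Ppp2r1a, the scaffold subunit of protein phosphatase 2A, averaged 149 ± 6.12 FPKM in STYK1 and 175 ± 21.3 FPKM in vector libraries, without overlap (limma-trend, adjusted p = 0.469), and Fzr1, another activator of the anaphase-promoting complex, averaged 29.4 ± 2.37 FPKM in STYK1 and 34.2 ± 2.94 FPKM in vector libraries, with overlap (limma-trend, adjusted p = 0.469). Gnb2, a G protein beta subunit, averaged 177 ± 3.68 FPKM in STYK1 and 198 ± 20.3 FPKM in vector libraries, without overlap (limma-trend, adjusted p = 0.477). Stat3 was higher in STYK1 libraries, at 51.5 ± 1.60 FPKM against 46.7 ± 2.47 FPKM, also without overlap (limma-trend, adjusted p = 0.478). Of the 16, 2 were higher and 3 lower without overlap, where 13.6% and 9.44% of tested genes were. Without vector 1 the log2 differences of Ppp2r1a, Gnb2 and Stat3 were -0.12, -0.08 and 0.10, against -0.22, -0.16 and 0.14 with it.

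Heat shock factors switch on chaperone genes, and HSP70 hands some clients to CCT. The 11 genes of this list had a median log2 difference of 0.09, with 7 above 0, and of 0.02 without vector 1. Hspa4, an HSP70 nucleotide exchange factor, measured 68.4, 75.6 and 71.2 FPKM in STYK1 1, 2 and 3, against 62.3, 61.3 and 60.9 FPKM in vector 1, 2 and 3. The STYK1 libraries were all higher, and the log2 difference was 0.22 ± 0.08 (SE; limma-trend, unadjusted p = 0.0228, adjusted p = 0.469), and 0.23 without vector 1. Hsf1, the main heat shock factor, measured 85.9, 95.8 and 90.6 FPKM in STYK1 libraries against 128, 97.7 and 101 FPKM in vector libraries, again without overlap, with a log2 difference of -0.25 ± 0.12 (SE; limma-trend, adjusted p = 0.469) and of -0.13 without vector 1. Among the 11 genes, 2 were higher and 1 lower without overlap, where 13.6% and 9.44% of tested genes were. No list had a member that passed over all tested genes (limma-trend). Equal FPKM sums raised the counts above 0, as they raised all genes, while list medians relative to the median of all tested genes moved little: prefoldin was at -0.14 with equal sums against -0.15 without, the R2TP and prefoldin-like genes at -0.12 against -0.13, the tubulin cofactors at -0.16 against -0.17 and the heat shock list at 0.08 against 0.07. After quantile normalization these values were -0.08, -0.08, -0.10 and 0.20 in the same order of lists. On the same measure the actin and tubulin clients were at 0.13 after quantile normalization, against -0.0049 with the values as deposited and 0.0013 with equal sums.

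**Figure D4:**
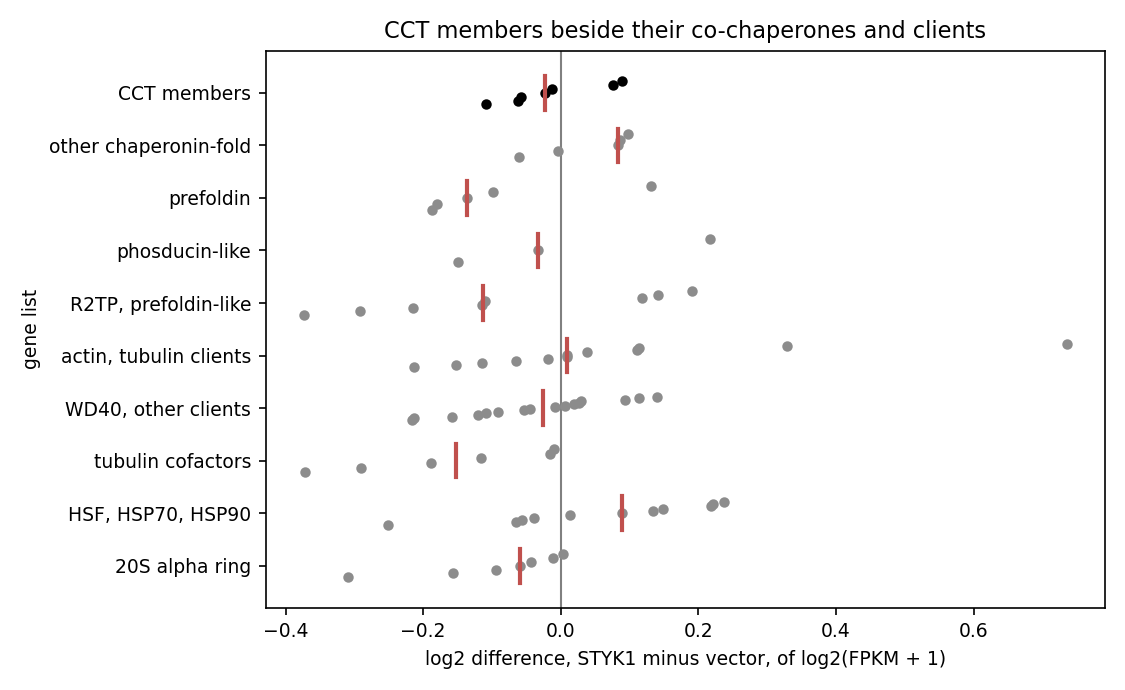
Log2 difference, STYK1 minus vector, of log2(FPKM + 1) (x axis) for each tested gene of the CCT members (black) and of the lists around them and the 20S alpha ring (grey), 1 row per list (y axis), with the list median as a red bar. The 7 CCT members lie between -0.11 and 0.09, and the point farthest from 0 is Actr2 at 0.74.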

How the data were processed

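Total RNA was taken with Trizol and sequenced from 6 Illumina TruSeq RNA libraries, per the labels' protocols. The authors deposited FPKM values with 2 decimals, 1 file per library, per the file headers. Per the submitters' processing notes, Bowtie 0.12.2 and the mouse builds mm8 and mm9 played some part that is not described. No source used here names the FPKM tool, the gene models or the use of strand. IDs were matched to the RefSeq gene table of BCM_Maur_2.0 for names only (15049 of 16078); no sequence is compared here.

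Genes averaging 1 FPKM or more in a group were tested with limma-trend (limma 3.58.1, R 4.3.3, robust) on log2(FPKM + 1), two-sided, with Benjamini-Hochberg adjustment over all tested genes. Log2 differences are on that scale; ratios are of mean FPKM. Replicate numbers did not pair libraries. The test was tried on the deposited values after the STYK1 values of 200 genes averaging at least 50 FPKM were multiplied by a known fold. At an adjusted p under 0.05 (limma-trend) it called 0% of them higher at 1.3-fold, 34.5% at 1.5-fold and 88.5% at 2-fold. The members and lists were chosen with earlier results of these data known. In each list, genes were named by smallest p, up to 4, or as other listed members chosen after their values were seen (Pfdn6, Pfdn2, Actb, Actg1, Cdc20, Mkks, Cct6b). Alternatives were other scalings, pseudocount, filter, weights, a replicate block and leaving out each library.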

Additional observations from a re-analysis of the deposited data

How the results depend on the processing

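Under each of the 14 alternatives, 0 of the 7 CCT members passed (limma-trend; smallest adjusted p 0.367 to 0.803). Over all genes, 0 passed with all libraries weighted alike, 24 with array quality weights, which gave vector 1 a weight of 0.129, and 0 to 2 when a library was left out (2 without STYK1 1, without STYK1 3 or without vector 3). The median of the 7 was 0.089 with equal FPKM sums and 0.082 after quantile normalization; the ratio of summed FPKM was 1.07 with equal sums, a scaling that also moved the median of all genes, to 0.12. With equal sums the differences of Cct2, Cct3, Cct4, Cct5 and Cct7 were 0.089, 0.049, 0.099, 0.0027 and 0.054, and after quantile normalization those of Cct2, Cct3, Cct4 and Cct7 were 0.095, 0.031, 0.082 and 0.054, all above 0. Tcp1 was at -0.037 with quality weights. With a library left out, the differences ranged from -0.11 to 0.0033 for Cct3, from -0.059 to 0.018 for Cct4 and from -0.087 to 0.0013 for Cct7. The cause of these changes of sign was not tested.

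Same-numbered libraries did not deviate together (correlations of deviations from the group means of -0.273, -0.156 and 0.113 for numbers 1, 2 and 3), and STYK1 1 and STYK1 2 each correlated better with a vector library of another number. With the replicate block 0 genes passed, as without it, and 831 genes were under an unadjusted p of 0.05, against 1128. List medians without vector 1 and under other scalings were computed after the data were seen. Depth is known only in relative terms, so no counting interval is given.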
